A study of Mus musculus with 9 samples.

Results

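The 6 genes described here are the NR4A orphan nuclear receptors Nr4a1, Nr4a2 and Nr4a3 and the early growth response factors Egr1, Egr2 and Egr3, followed by symbol through a table of 25160 genes. They were selected on their CPM levels and log2 fold changes between the 3 groups, seen in earlier work on these data. Where a gene had several RefSeq transcript rows, the row with the highest total over the 9 libraries was used. All 6 were among the 11256 genes that passed the filter on low counts. Splenic CD4+ T cells of C57BL/6 mice were sorted as naive cells and cultured on plates coated with 1 µg/ml of an antibody against CD3e, part of the T cell receptor complex, so every group received this stimulus. In the WT anti-CD40L group the plates also carried 19 µg/ml of an antibody against CD40L, the ligand of CD40. In the KO isotype group, cells titled KO, with the genotype label cre, were kept on 19 µg/ml of isotype control antibody, and the design text describes these mice as lacking CD40L in T cells only. In the WT isotype group, wild-type cells were kept on the same isotype antibody. Each group had 3 libraries, and the sources used here name neither the promoter that drives Cre nor the length of the culture. The labels do not tie the libraries of a group to different animals or cultures, and p-values therefore cover library-to-library spread, part of which may be technical.

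NR4A and EGR genes are immediate early genes: T cell receptor signals switch them on through transcription factors that are already present in the cell. NR4A proteins bind DNA without a known hormone ligand, and Nr4a1, which encodes NUR77, is widely used as a reporter of T cell receptor signal strength. EGR proteins bind GC-rich DNA through zinc fingers. Egr1 accompanies growth signals in many cell types, while Egr2 and Egr3 are known in T cells for restraining activation and for genes of anergy.

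The DNA just before an annotated transcript start of 4 of the 6 genes is shown because immediate early genes are known to be switched on through elements close to their start. The windows come from RefSeq starts on GRCm38.p6 and cover 250 bases before the annotated start, for Nr4a1 at chr15:101266596-101266845 on the plus strand, for Nr4a2 at chr2:57124004-57124253 on the minus strand and for Egr2 at chr10:67537619-67537868 on the plus strand. For Nr4a1 and Egr2 that start is the one GENCODE gives the counted transcript, and the window lies inside the RefSeq gene span, which begins at an earlier start. For Nr4a3 the first 98 bases of its window are printed, chr4:48045055-48045152 on the plus strand, because GENCODE places the start of the counted transcript inside the window, while the RefSeq gene span already begins at 48045078. The Nr4a2 window belongs to the start of its longer gene model, and the counted transcript starts further downstream in GENCODE. Capitals mark the core of the cAMP response element (TGACG, or CGTCA on the other strand), the EGR site (GCGNGGGCG, either strand) and the CArG box that binds SRF. Egr1 and Egr3 are named only.
Nr4a1: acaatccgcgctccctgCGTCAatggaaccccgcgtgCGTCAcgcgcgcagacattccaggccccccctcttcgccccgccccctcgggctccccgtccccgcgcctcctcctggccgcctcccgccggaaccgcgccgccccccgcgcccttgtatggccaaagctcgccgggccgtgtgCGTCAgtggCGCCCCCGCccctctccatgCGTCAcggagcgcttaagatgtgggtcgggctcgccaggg
Nr4a2: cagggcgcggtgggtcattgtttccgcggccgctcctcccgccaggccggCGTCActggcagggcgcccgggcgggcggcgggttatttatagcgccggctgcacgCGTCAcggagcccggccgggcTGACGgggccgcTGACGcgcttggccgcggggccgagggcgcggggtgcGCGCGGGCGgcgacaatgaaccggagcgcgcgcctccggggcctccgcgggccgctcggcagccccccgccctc
Nr4a3: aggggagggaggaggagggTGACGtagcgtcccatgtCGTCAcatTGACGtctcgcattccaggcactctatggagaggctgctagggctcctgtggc
Egr2: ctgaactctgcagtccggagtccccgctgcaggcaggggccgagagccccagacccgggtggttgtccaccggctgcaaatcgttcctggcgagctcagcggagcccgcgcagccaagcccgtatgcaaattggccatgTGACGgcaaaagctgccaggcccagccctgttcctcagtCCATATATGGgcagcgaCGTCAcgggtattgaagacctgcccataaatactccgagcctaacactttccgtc

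All 4 windows held the TGACG core, which 17.7% of 32817 windows of the same length held. Nr4a1 and Nr4a2 each had 4 cores within 250 bases, a number reached by 0.137% of all windows, and Egr2 had 2. All matches given here for Nr4a2 lie before the start of its longer gene model, not of the counted transcript. The Nr4a3 window also held 4, but only the 3 printed ones lie before the GENCODE start of the counted transcript. These windows are rich in G and C, at 74.4% in Nr4a1, 80.0% in Nr4a2, 63.6% in Nr4a3 and 61.6% in Egr2, against a median of 52.4% over all windows. Among windows with at least 61.6% G and C, 27.7% held the core and 0.376% held 4 or more. The full 8-base element TGACGTCA, which contains the core, was in none of the 4 and in 1.55% of all windows. The EGR site was found in Nr4a1 and Nr4a2, against 4.7% of all windows and 15.9% of the GC-rich ones. The CArG box was found in Egr2, 72 bases before the start, against 1.47% of all windows. The NR4A element AAAGGTCA was in none of the 4 and in 1.34% of all windows. The AP-1 site TGANTCA was in none of the 4 and in 6.75% of all windows. The NFAT core GGAAA was in 2 of the 4, against 55.6% of all windows and 39.4% of the GC-rich ones. The GC box GGGCGG was in 3 of the 4, in Nr4a3 outside the printed bases, against 32.7% of all windows and 79.6% of the GC-rich ones. Such matches describe letters and do not show binding.

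Total counts over genes ranged from 5316482 to 15565711 per library. WT anti-CD40L replicate 3 had the smallest total and scored -86.96 on the leading principal component (54% of the variance), where the other 8 libraries scored -10.22 to 19.1. Cd40lg, the gene of CD40L, had 109.3, 132.2 and 162.8 CPM (counts scaled to TMM-adjusted library size) in WT anti-CD40L, 145.1, 136.1 and 150.2 in KO isotype and 141.7, 153.6 and 188.9 in WT isotype. It did not differ by label KO beyond the spread (log2 fold change -0.17, SE 0.13, edgeR adjusted p = 0.935), and since the deleted part is not given, this level does not check the label. T cell markers summed to 4427 to 4604 CPM in WT anti-CD40L, 4288 to 4696 in KO isotype and 4420 to 4858 CPM in WT isotype, with all 9 listed genes detected. Summed over the 12 measured markers of B cells, the level was 19.5 to 36.2 CPM in WT anti-CD40L, 19.0 to 57.2 in KO isotype and 27.1 to 63.3 CPM in WT isotype. The 12 myeloid markers summed to 46.4 to 51.6 CPM in WT anti-CD40L, 57.5 to 104.9 in KO isotype and 81.3 to 92.3 in WT isotype, mostly from the protease gene Ctss, while the defining marker Csf1r was at 0 to 0.217 CPM in every library. The part of these cells in the results below was not tested. In such bulk samples, fewer expressing cells and less RNA per cell cannot be told apart.

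In RefSeq (GRCm38.p6), the gene Nr4a1 (NM_010444) lies on chromosome 15 at 101253902 to 101274795, Nr4a2 (NM_013613) on chromosome 2 at 57106830 to 57124003 and Nr4a3 (NM_015743) on chromosome 4 at 48045078 to 48086447. Egr1 (NM_007913) lies on chromosome 18 at 34861207 to 34864956, Egr2 (NM_010118) on chromosome 10 at 67534469 to 67542188 and Egr3 (NM_001289925) on chromosome 14 at 70077317 to 70082613. All 6 genes were well expressed in every group. Nr4a1 ranked 136 among the 11256 tested genes by mean CPM over the 9 libraries, Nr4a3 ranked 294, Egr1 475, Egr2 641, Egr3 1213 and Nr4a2 1749. Levels were also set per kb of the longest GENCODE transcript matched to the gene, so that genes of different length can be compared. On that scale Nr4a1 was highest in all 9 libraries, at 228 ± 44.6 CPM per kb in WT anti-CD40L, 434 ± 56.4 in libraries labelled KO and 364 ± 58.8 in WT isotype (SD, n = 3 each). In WT isotype it was followed by Egr1 at 125 ± 22.8, Egr2 at 101 ± 28.8 and Nr4a3 at 79.5 ± 9.37 CPM per kb (SD, n = 3). Egr3 at 48.1 ± 6.81 and Nr4a2 at 37.0 ± 4.41 CPM per kb came last. These Egr3 values use a length of 3940 nt, that of another Egr3 row with nearly the same reads. The counted row itself matched a GENCODE transcript of 1509 nt, by which Egr3 would be at 94.8 ± 14.5 CPM per kb in WT anti-CD40L, 133.1 ± 8.25 in KO isotype and 125.6 ± 17.8 in WT isotype (SD, n = 3 each), close to Egr1, so its place in the order depends on that choice. With the longer length, the ranges of Egr1 and Egr2, of Egr2 and Nr4a3, and of Egr3 and Nr4a2 overlapped in WT isotype. Within each WT isotype library, however, Egr1 was above Egr2 and Egr3 above Nr4a2. Nr4a3 was above Egr2 in WT isotype replicate 1 and below it in the others. In WT anti-CD40L Egr3 was likewise above Nr4a2, there without overlapping ranges, at 36.3 ± 5.56 against 20.9 ± 2.26 CPM per kb (SD, n = 3 each). Egr4, the remaining EGR gene, was close to absent, with 8 counts of 26330566 in WT anti-CD40L, 18 of 38275719 in libraries labelled KO and 19 of 30560812 in WT isotype, and did not pass the filter.

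**Figure D1:**
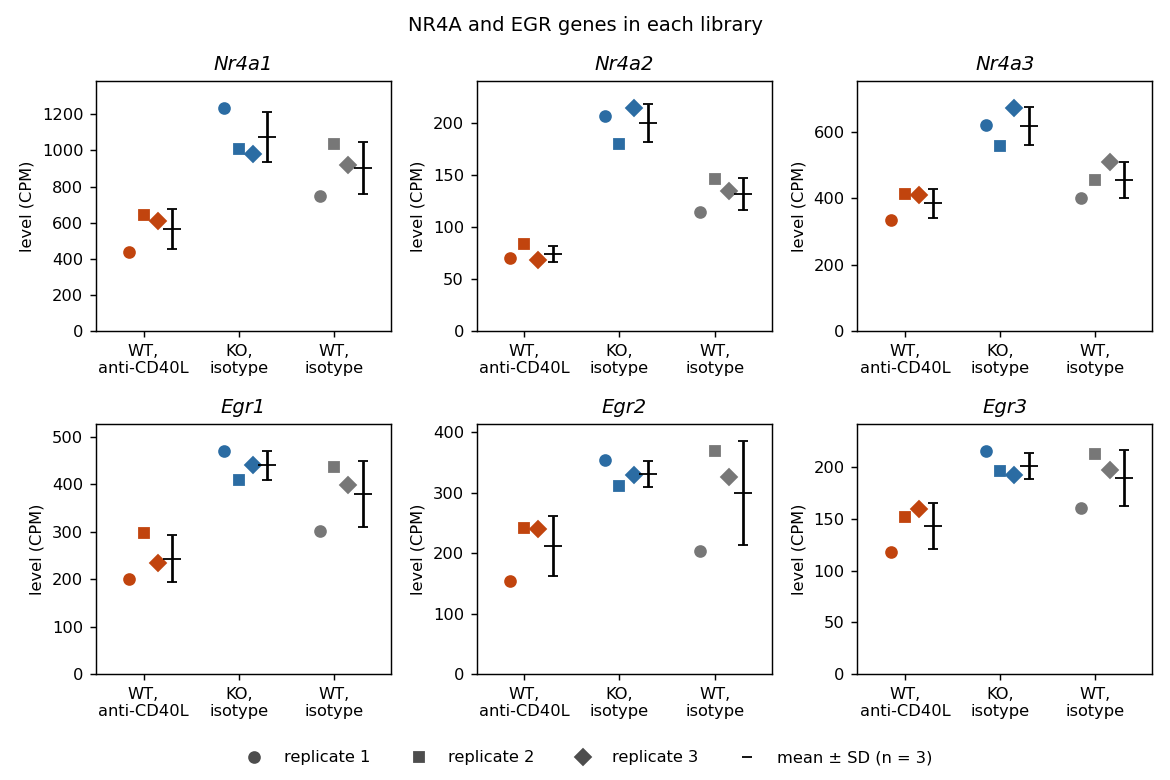
Level of each gene (CPM, linear axis from 0) in every library, with WT anti-CD40L left, KO isotype in the middle and WT isotype right. Marker shapes are replicate numbers and bars are mean ± SD (n = 3). For Nr4a2 the 3 groups form separate bands, with WT anti-CD40L at 69.0 to 83.7 CPM, libraries labelled KO at 180 to 215 CPM and WT isotype at 115 to 146 CPM.

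On anti-CD40L, all 6 genes were lower on average than in WT isotype, and Nr4a1, Nr4a2 and Egr1 fell past the threshold. These 3 of 6 compare with 6.46% of all tested genes called lower and 9.37% called in either direction. A log2 fold change below 0, which all 6 had, was found for 51.8% of all tested genes, and an unadjusted p under 0.05, which all 6 had, for 26.4%. The median log2 fold change was -0.57 over the 6 genes and -0.01 over all tested genes. Since the genes were chosen with earlier results known, these tests describe the members and give no independent support.

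Nr4a2 was at 70.5, 83.7 and 69.0 CPM in WT anti-CD40L replicates 1 to 3, against 115, 146 and 135 CPM in WT isotype replicates 1 to 3. The groups did not overlap, and the highest anti-CD40L library lay well under the lowest isotype library. Nr4a2, which encodes NURR1, fell 1.77-fold (log2 fold change -0.82, SE 0.11, edgeR adjusted p = 0.00059). This call held in all 19 alternatives, with log2 fold changes of -0.92 to -0.74.

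Nr4a1 was at 438, 643 and 612 CPM in WT anti-CD40L, against 748, 1038 and 920 CPM in WT isotype. Every anti-CD40L library was below every isotype library. Nr4a1 fell 1.60-fold (log2 fold change -0.68, SE 0.15, edgeR adjusted p = 0.0142). The call was lost without WT isotype replicate 2 (edgeR adjusted p = 0.0678) or 3 (edgeR adjusted p = 0.0512).

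Nr4a3, which encodes NOR1, was at 334, 411 and 409 CPM in WT anti-CD40L, against 401, 456 and 508 CPM in WT isotype. The groups overlapped, because WT isotype replicate 1 lay under 2 of the anti-CD40L libraries. Its log2 fold change was -0.24 (SE 0.11, edgeR adjusted p = 0.18), the smallest of the 6, and no alternative called it.

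Among the EGR genes, Egr1 was at 201, 297 and 233 CPM in WT anti-CD40L, against 302, 437 and 397 CPM in WT isotype. The ranges did not overlap, although WT anti-CD40L replicate 2 came close to WT isotype replicate 1. Egr1 fell 1.56-fold (log2 fold change -0.64, SE 0.15, edgeR adjusted p = 0.0169). This call was lost in 4 of the fits with 1 library left out. The edgeR adjusted p was 0.0613 without WT anti-CD40L replicate 1 and 0.0626 without replicate 3 (the library that stood apart). It was 0.0804 and 0.0637 without WT isotype replicates 2 and 3. Over all fits with 1 library left out, the log2 fold change was -0.81 to -0.51.

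Egr2 was at 155, 242 and 239 CPM in WT anti-CD40L, against 204, 369 and 326 CPM in WT isotype. It had the widest spread of the 6 in WT isotype, with a highest library 1.81 times the lowest, and the groups overlapped at WT isotype replicate 1. Egr2 was not called (log2 fold change -0.50, SE 0.20, edgeR adjusted p = 0.123), but was called without WT isotype replicate 1 (edgeR adjusted p = 0.0255).

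Egr3 was at 118, 152 and 160 CPM in WT anti-CD40L, against 160, 212 and 196 CPM in WT isotype. The groups met at 160 CPM, where WT anti-CD40L replicate 3 (159.6 CPM) lay just under WT isotype replicate 1 (159.8 CPM). Egr3 narrowly missed the threshold (log2 fold change -0.41, SE 0.12, edgeR adjusted p = 0.0538). Egr3 was called in 8 of the 19 alternatives, among them DESeq2 (adjusted p = 0.0219), limma-voom with quality weights (0.0211), scaling by library totals only (0.0491) and no filter (0.00132). With 1 library left out, it was called without WT anti-CD40L replicate 3 (edgeR adjusted p = 0.0432), without replicate 3 labelled KO (edgeR adjusted p = 0.0453) and without WT isotype replicate 1 (edgeR adjusted p = 0.0347). Groups did not overlap for 4 of the 6 genes, all lower on anti-CD40L, against 17.2% of all tested genes not overlapping in that direction.

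In libraries labelled KO, all 6 genes had a log2 fold change above 0 over WT isotype, as did 50.6% of all tested genes, and none was called, as no gene of the whole table was (0% of 11256). At an unadjusted p under 0.05 there were 2 of the 6, Nr4a2 and Nr4a3, against 5.77% of all tested genes, and the same 2 did not overlap with WT isotype, against 7.61% of all tested genes not overlapping with KO higher. DESeq2 called 42 genes in this comparison and limma-voom with quality weights 32. The median log2 fold change was 0.23 over the 6 genes and 0.00 over all tested genes.

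Nr4a2 was at 207, 180 and 215 CPM in libraries labelled KO, against 115, 146 and 135 CPM in WT isotype. Every library labelled KO was above every WT isotype library. Its mean was 1.52-fold higher (log2 fold change 0.61, SE 0.11, edgeR adjusted p = 0.195), a difference called by DESeq2 (adjusted p = 0.00125) and by limma-voom with quality weights (0.0193). Of the 19 alternatives, 3 called it. Its edgeR adjusted p ranged from 5.97e-06 without the filter on low counts to 0.65 without replicate 3 labelled KO.

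Nr4a3 was at 620, 558 and 671 CPM in libraries labelled KO, against 401, 456 and 508 CPM in WT isotype. Again the groups did not overlap. The log2 fold change was 0.44 (SE 0.11, edgeR adjusted p = 0.415), with an adjusted p of 0.0416 by DESeq2 and 0.112 by limma-voom with quality weights.

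For the other 4 genes the libraries labelled KO overlapped with WT isotype. Nr4a1 was at 1236, 1009 and 982 CPM in libraries labelled KO and had a log2 fold change of 0.25 (SE 0.15, edgeR adjusted p = 0.902). Egr1 was at 470, 409 and 440 CPM, with a log2 fold change of 0.22 (SE 0.14, edgeR adjusted p = 0.927). Egr2, at 354, 311 and 330 CPM, and Egr3, at 215, 195 and 192 CPM in these libraries, had log2 fold changes of 0.15 (SE 0.19) and 0.08 (SE 0.12), with edgeR adjusted p = 0.961 and 0.97. The sign of both turned without WT isotype replicate 1, to -0.07 for Egr2 and -0.03 for Egr3. A p-value over the threshold does not show that these levels were the same.

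**Figure D2:**
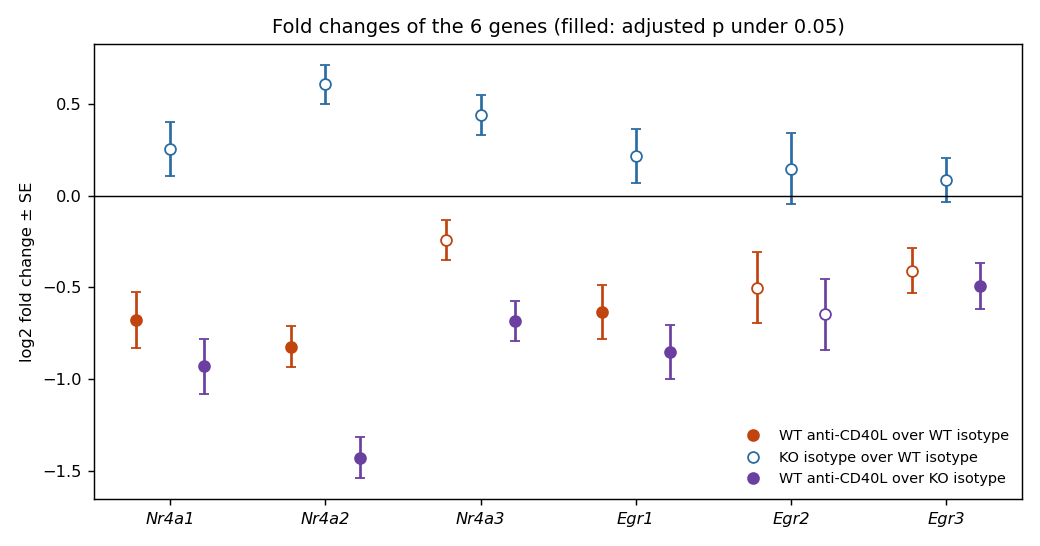
Log2 fold change ± SE of each gene in the 3 comparisons (edgeR, 9 libraries), with filled points past an adjusted p of 0.05. In WT anti-CD40L over WT isotype the points run from -0.82 (Nr4a2) to -0.24 (Nr4a3), in KO over WT isotype from 0.08 (Egr3) to 0.61 (Nr4a2), and Nr4a2 is farthest from 0 in each.

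The direct comparison of WT anti-CD40L with the libraries labelled KO also tests whether the differences above differ from each other, since the shared WT isotype level drops out. Here the genotype label and the plate antibody both differ. No KO group on anti-CD40L was present, so the parts of genotype and antibody cannot be told apart. All 6 genes had log2 fold changes below 0, as did 51.4% of all tested genes. Of the 6, 5 were called lower, against 5.04% of all tested genes called lower and 6.83% called in either direction. An unadjusted p under 0.05 was found for all 6 genes and for 22.2% of all tested genes. All 6 had groups that did not overlap, against 15.9% of all tested genes in that direction. The median log2 fold change was -0.77 over the 6 genes and -0.01 over all tested genes.

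Nr4a2 was 2.69-fold lower on anti-CD40L (log2 fold change -1.43, SE 0.11, edgeR adjusted p = 1.96e-05), its widest difference. It was at 69.0 to 83.7 CPM on anti-CD40L against 180 to 215 CPM in libraries labelled KO. Nr4a1 was 1.91-fold lower (log2 fold change -0.93, SE 0.15, edgeR adjusted p = 0.00229). Egr1 was 1.81-fold lower, with a log2 fold change of -0.85 (SE 0.15, edgeR adjusted p = 0.00328). Nr4a3 was 1.61-fold lower (log2 fold change -0.68, SE 0.11, edgeR adjusted p = 0.00226). These 4 calls held in all 19 alternatives. Against WT isotype, Nr4a3 had a log2 fold change of -0.24 on anti-CD40L and 0.44 in libraries labelled KO, neither of them called.

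Egr3 was 1.41-fold lower on anti-CD40L than in libraries labelled KO (log2 fold change -0.49, SE 0.12, edgeR adjusted p = 0.0287). The Egr3 call was lost without WT anti-CD40L replicate 1 (edgeR adjusted p = 0.0999), or without replicate 1 or 2 labelled KO (edgeR adjusted p = 0.105 and 0.0906). Egr2 was not called (log2 fold change -0.65, SE 0.20, edgeR adjusted p = 0.0666). It was called without WT isotype replicate 1 (edgeR adjusted p = 0.0207), by DESeq2 (adjusted p = 0.0147) and by limma-voom with quality weights (0.0312).

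The 6 genes shared their high and low libraries to a large degree, an order that some T cell markers outside the families had too. WT isotype replicate 1 was the lowest of its group for all 6 genes, and WT isotype replicate 2 the highest for 5, with Nr4a3 highest in replicate 3. WT anti-CD40L replicate 1 was the lowest of its group for 5 genes, with Nr4a2 lowest in replicate 3. Among libraries labelled KO, replicate 1 was highest for Nr4a1 and the 3 EGR genes, and replicate 3 for Nr4a2 and Nr4a3. Of the T cell markers, Cd3e, Cd3d, Cd3g, Cd5, Lck and Cd2 were also lowest in WT isotype replicate 1. Cd4, Cd28 and Thy1 were lowest in WT isotype replicate 2. Cd3d, at 268.8, 345.3 and 294.6 CPM in WT isotype, ordered the replicates of every group as Nr4a1 did. The shared order is thus not particular to the 6 genes, and its cause was not tested. Spread within WT isotype ran from a coefficient of variation of 11.8% for Nr4a3 to 28.5% for Egr2.

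**Figure D3:**
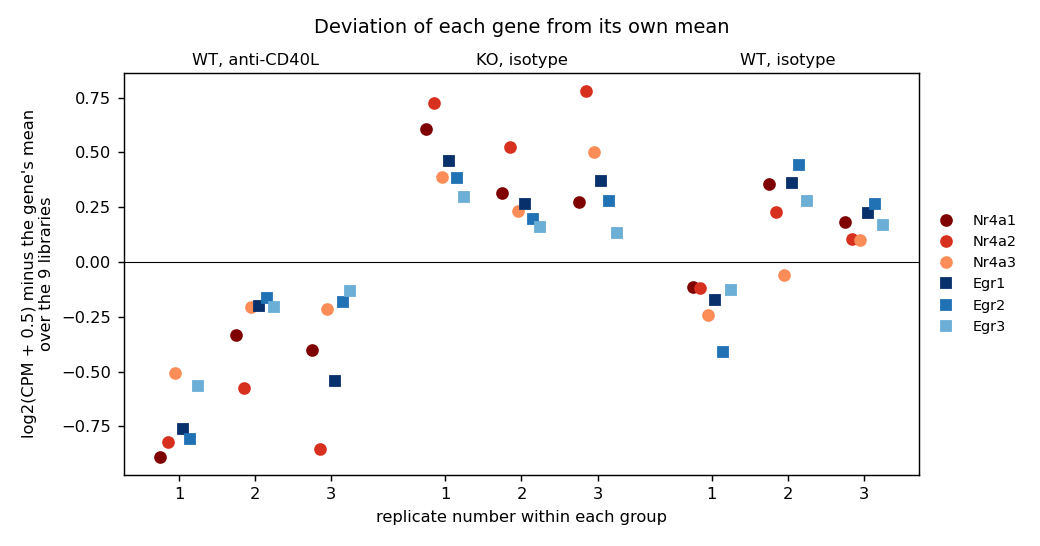
Deviation of log2(CPM + 0.5) from each gene's own mean over the 9 libraries, by group and replicate, with circles for NR4A and squares for EGR genes. All points of WT anti-CD40L lie below 0 and all points of KO isotype above 0, while WT isotype replicate 1 lies below 0 for all 6 genes and replicate 2 above 0 for all but Nr4a3.

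Within the families the mix of members was compared as each gene's share of the summed CPM per kb, a measure that does not depend on library scaling. Of the NR4A sum, Nr4a3 made up 22.9%, 20.3% and 21.1% in WT anti-CD40L, against 17.3%, 14.8% and 17.8% in WT isotype. The share of Nr4a3 was higher in every anti-CD40L library than in every WT isotype library. Nr4a2 made up 8.72%, 9.09% and 10.5% in libraries labelled KO, against 7.98%, 7.60% and 7.57% in WT isotype, again without overlap. With 3 libraries against 3, the two-sided exact permutation test cannot go below p = 0.1, which both shares reached. So did the Nr4a1 share, at 71.87% ± 2.18 in WT anti-CD40L against 75.65% ± 1.74 in WT isotype (SD, n = 3 each). The shares of Nr4a2, Egr1 and Egr3 reached it in WT anti-CD40L against libraries labelled KO. Shares of a family divide the same sum and are not independent. None of the 18 shares compared came under 0.3 after Benjamini-Hochberg adjustment. Of the EGR sum, Egr1 made up 42.7% ± 3.41 in WT anti-CD40L, 47.1% ± 0.482 in libraries labelled KO and 45.8% ± 1.61 in WT isotype (SD, n = 3 each). With the shorter Egr3 length the Egr1 share was 32.6% ± 3.00 in WT anti-CD40L, 37.1% ± 0.652 in KO isotype and 35.6% ± 0.603 in WT isotype.

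Transcript rows of a gene mostly held the same reads. The second rows of Nr4a2, Egr2 and Egr3 had 0.9996, 0.926 and 0.998 of the total of the first. Nr4a3 was the exception: its row NM_001307989 had 0.338 of the total of NM_015743, the row used here. On the smaller row Nr4a3 averaged 125 ± 22.1 CPM in WT anti-CD40L, 207 ± 19.1 in KO isotype and 164 ± 14.4 CPM in WT isotype (SD, n = 3 each). The log2 ratio of the means of WT anti-CD40L over WT isotype was -0.40 on that row and -0.24 on the larger one, which were not tested against each other.

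Genes outside the families with the most similar profile were ranked by the mean absolute difference of centred log2(CPM + 0.5) over the 9 libraries, among 10253 genes of at least 1 CPM. Nearest to Nr4a2 was Fosl2, an AP-1 subunit gene, at a mean difference of 0.094, followed by Wnt10b, a secreted WNT ligand, and Adora2a, an adenosine receptor, both at 0.142. Nr4a1 lay closest to Ctse (0.083), an aspartic protease gene, Cd160 (0.092), a cell surface receptor, and Adora2a (0.094). Nearest to Nr4a3 were Otud1 and Kdm6b, a deubiquitinase and a histone demethylase, both at 0.091, and Wdfy1 (0.1). These values are descriptions over libraries that share their groups.

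Among the EGR genes, Egr1 was nearest to Runx1 (0.062), a transcription factor of T cells, to Bdh2 (0.078) and to Bcl6 (0.1), a transcriptional repressor. Egr2 was nearest to Akr1c18 (0.101), a steroid-reducing enzyme, Plk3 (0.108), a stress-responsive kinase, and Cd160 (0.111). Egr3 was nearest to Vsir (0.021), the inhibitory receptor VISTA, Ubash3b (0.069), a phosphatase that dampens T cell receptor signals, and Slc41a1 (0.072), a magnesium transporter. Within the 6 genes the closest pair was Nr4a1 and Egr1 (0.088) and the most distant was Nr4a2 and Egr2 (0.326). The 3 EGR genes lay 0.117 to 0.145 from each other and the 3 NR4A genes 0.2 to 0.294.

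Genes of the pathways upstream of the 6 genes were read beside the 2.91% of all tested genes called higher and 6.46% called lower on anti-CD40L against WT isotype. Of 10 calcineurin and NFAT genes, 1 rose and none fell on anti-CD40L against WT isotype. This was Nfat5, the NFAT relative without calcineurin control, at 256 ± 72.0 CPM on anti-CD40L and 141 ± 22.6 CPM in WT isotype (SD, n = 3 each, edgeR adjusted p = 0.043), a call lost in 6 of the 9 fits with 1 library left out (WT anti-CD40L replicates 1 and 2, KO isotype replicate 2 and each WT isotype library), with an adjusted p of up to 0.157 without WT anti-CD40L replicate 1. Nfatc1, a calcineurin-controlled NFAT factor, was at 367 ± 61.6 CPM on anti-CD40L and 394 ± 76.8 CPM in WT isotype (SD, n = 3 each, edgeR adjusted p = 0.68). Of 13 genes for SRF, its partners, CREB and MEF2 factors, 2 fell and none rose. Mef2d, a calcium-responsive activator of Nr4a1, was at 152 ± 6.44 CPM on anti-CD40L and 194 ± 12.3 CPM in WT isotype (SD, n = 3 each, edgeR adjusted p = 0.0155). Mrtfa, an SRF coactivator, was at 55.8 ± 6.97 CPM on anti-CD40L and 81.0 ± 10.2 CPM in WT isotype (SD, n = 3 each, edgeR adjusted p = 0.0188). Without WT isotype replicate 1 the edgeR adjusted p was 0.0844 for Mef2d and 0.102 for Mrtfa, the highest over the fits with 1 library left out. The calls of both were also lost without WT anti-CD40L replicate 1 or WT isotype replicate 3, and that of Mrtfa without WT anti-CD40L replicate 2.

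Of 20 genes of the ERK cascade and its feedback phosphatases, 1 rose and 1 fell on anti-CD40L against WT isotype. Rasgrp1, the RAS activator downstream of the T cell receptor, was at 188, 178 and 165 CPM on anti-CD40L, against 300, 230 and 264 CPM in WT isotype, and fell by 0.58 on the log2 scale (SE 0.10, edgeR adjusted p = 0.0025). Dusp5, a nuclear phosphatase of ERK that ERK signals induce, was at 234, 261 and 295 CPM on anti-CD40L, against 103, 134 and 141 CPM in WT isotype. Dusp5 rose by 1.06 on the log2 scale (SE 0.12, edgeR adjusted p = 0.000166). Both calls held in all 19 alternatives.

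Of 7 partners and corepressors of the families, 1 rose and none fell, beside 2.91% of all tested genes called higher and 6.46% called lower. This was Hdac7, a deacetylase that represses Nr4a1 in thymocytes, at 481 ± 12.9 CPM on anti-CD40L and 370 ± 40.9 CPM in WT isotype (SD, n = 3 each, edgeR adjusted p = 0.036). The Hdac7 call was lost without any single library of the 2 groups compared, with an adjusted p of 0.0525 to 0.128. Nab2, an EGR corepressor that EGR factors themselves induce, was at 156, 180 and 178 CPM on anti-CD40L, against 173, 227 and 194 CPM in WT isotype, with overlapping groups (log2 fold change -0.21, SE 0.10, edgeR adjusted p = 0.206).

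Other immediate early genes moved in both directions. Of 36 tested of 37 listed, 8 fell and 4 rose on anti-CD40L against WT isotype, beside 6.46% of all tested genes called lower and 2.91% called higher, and their median log2 fold change was -0.10. Klf6, a zinc finger factor, was at 58.5, 52.2 and 40.1 CPM on anti-CD40L, against 130, 98.8 and 99.5 CPM in WT isotype (log2 fold change -1.11, SE 0.15, edgeR adjusted p = 0.00061). Fosl2 was at 39.5, 53.1 and 43.4 CPM on anti-CD40L, against 80.1, 94.7 and 100 CPM in WT isotype, and fell by 1.01 on the log2 scale (SE 0.13, edgeR adjusted p = 0.00046). Btg2, an antiproliferative gene, was at 102, 141 and 104 CPM on anti-CD40L, against 215, 260 and 222 CPM in WT isotype (2.0-fold lower, edgeR adjusted p = 0.000388). For all 3 the groups did not overlap, and all 3 calls held in the 19 alternatives.

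In the opposite direction, Bhlhe40, a basic helix-loop-helix factor of activated T cells, was at 144, 110 and 128 CPM on anti-CD40L, against 70.1, 48.9 and 54.7 CPM in WT isotype, and rose by 1.13 on the log2 scale (SE 0.14, edgeR adjusted p = 0.000322). Rgs1, a brake on G protein signals, rose by 0.89 (SE 0.17, edgeR adjusted p = 0.00702). Atf3, a stress-responsive factor, rose by 1.30 (SE 0.29, edgeR adjusted p = 0.0154), a call lost without WT anti-CD40L replicate 1 (0.0958) or WT isotype replicate 2 (0.0713). Myc, the growth factor-induced oncogene, was at 673, 593 and 738 CPM on anti-CD40L, against 494, 497 and 530 CPM in WT isotype, and rose by 0.40 (SE 0.09, edgeR adjusted p = 0.0117). The Myc call was lost without WT isotype replicate 1 (adjusted p = 0.052) or 2 (0.0511), both by edgeR. In libraries labelled KO, Fosl2 had a log2 fold change of 0.49 over WT isotype (SE 0.13, edgeR adjusted p = 0.461) and no listed gene was called. For WT anti-CD40L over those libraries, 7 of the 36 were called lower and 2 higher, beside 5.04% of all tested genes called lower and 1.79% called higher. Fosl2 was at -1.50 there (SE 0.13, edgeR adjusted p = 3.61e-05).

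**Figure D4:**
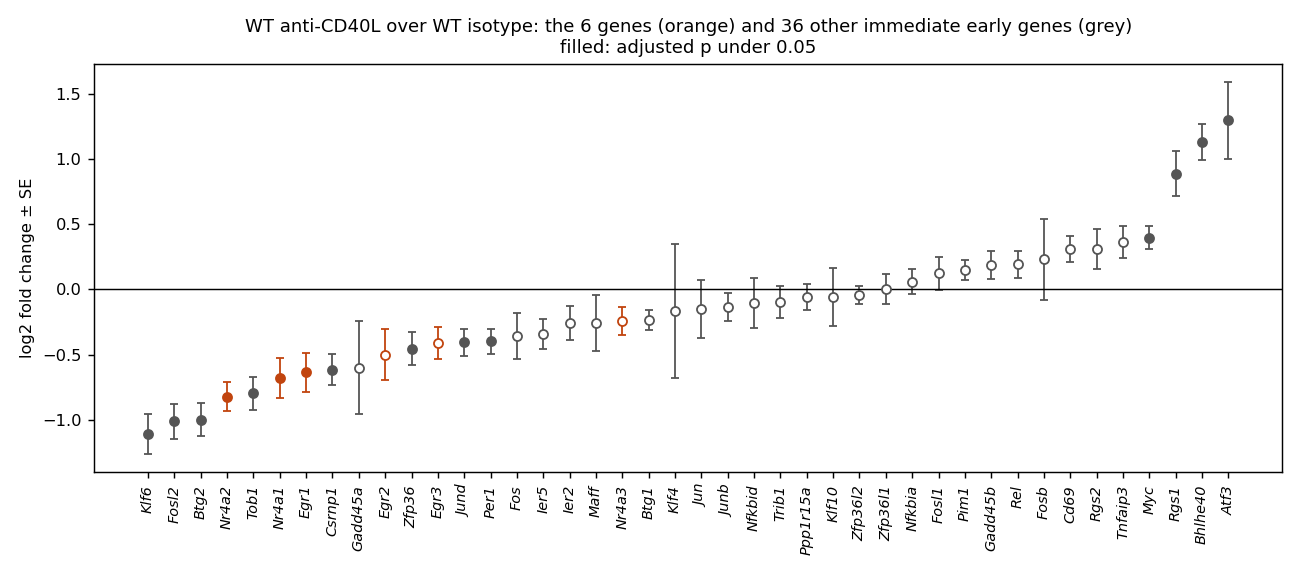
Log2 fold change ± SE of WT anti-CD40L over WT isotype for the 6 genes (orange) and 36 other immediate early genes (grey), in order of their value, with filled points past an adjusted p of 0.05. Nr4a2 (-0.82) lies above Btg2 and below Tob1 (-0.80), and Bhlhe40 (1.13) and Atf3 (1.30) stand at the opposite end.

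Genes described in T cells as targets of these factors moved in both directions. The lists do not state which targets a factor raises or lowers, so their medians give no direction of factor activity. Of 22 tested EGR targets, 3 fell and 2 rose on anti-CD40L against WT isotype, beside 6.46% of all tested genes called lower and 2.91% called higher, with a median log2 fold change of -0.23. Crtam, an adhesion receptor of activated T cells, fell by 0.96 (SE 0.12, edgeR adjusted p = 0.000322), and Dgka, a lipid kinase that limits RAS activation, fell by 0.65 (SE 0.12, edgeR adjusted p = 0.00389). Bcl6 was at 39.9, 65.8 and 41.1 CPM on anti-CD40L, against 63.3, 107 and 87.1 CPM in WT isotype, with overlapping groups (log2 fold change -0.80, SE 0.20, edgeR adjusted p = 0.0234). The Bcl6 call was lost without WT anti-CD40L replicate 1 or 3 (edgeR adjusted p = 0.0915 and 0.0967) and without WT isotype replicate 2 or 3 (edgeR adjusted p = 0.111 and 0.0703). Lag3, an inhibitory receptor, rose by 1.49 (SE 0.19, edgeR adjusted p = 0.000395) and is on both target lists, as is Il2. Il2 was low, at 15.42, 11.05 and 32.1 CPM on anti-CD40L, the last in the library that stood apart. In WT isotype it was at 6.27, 3.99 and 4.70 CPM. Il2 rose by 1.93 (SE 0.35, edgeR adjusted p = 0.00398), a call that held in all 19 alternatives. Cblb, a ubiquitin ligase of anergy, was at 554 ± 56.1 CPM on anti-CD40L and 450 ± 35.2 CPM in WT isotype and was not called (SD, n = 3 each, edgeR adjusted p = 0.0561).

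Of 23 tested NR4A targets, 4 rose and 3 fell in the same comparison, beside the same shares of all tested genes, with a median log2 fold change of -0.25. S1pr1, the receptor that guides T cells out of lymphoid tissue, was at 32.7, 42.9 and 40.7 CPM on anti-CD40L, against 278.6, 205.8 and 231 CPM in WT isotype. S1pr1 fell 6.18-fold (log2 fold change -2.63, SE 0.15, edgeR adjusted p = 6.87e-07), and the call held in all 19 alternatives. Irf4, a factor induced in proportion to T cell receptor signals, was at 2405, 2308 and 2347 CPM on anti-CD40L, against 1310, 1551 and 1633 CPM in WT isotype, and rose by 0.65 on the log2 scale (SE 0.10, edgeR adjusted p = 0.0011). Runx1 was at 61.4, 87.9 and 73.2 CPM on anti-CD40L, against 95.2, 122.8 and 114.6 CPM in WT isotype, and fell by 0.58 (SE 0.13, edgeR adjusted p = 0.0148). The Runx1 call was lost without WT anti-CD40L replicate 1 (edgeR adjusted p = 0.0552) and without WT isotype replicate 2 or 3 (edgeR adjusted p = 0.0694 and 0.0545). Klf2, a quiescence factor, fell by 1.63 (SE 0.15, edgeR adjusted p = 6.97e-05). In libraries labelled KO over WT isotype, none of the target genes was called. For WT anti-CD40L over libraries labelled KO, Ndrg1, listed as an EGR target, had a log2 fold change of -0.55 (SE 0.08, edgeR adjusted p = 0.00153). Ndrg1 was at 56.7 ± 2.52 CPM on anti-CD40L, 83.3 ± 2.02 in libraries labelled KO and 60.9 ± 1.06 in WT isotype (SD, n = 3 each). On anti-CD40L it was not called against WT isotype (log2 fold change -0.105, SE 0.09, edgeR adjusted p = 0.461). Libraries labelled KO had a log2 fold change of 0.45 over WT isotype (edgeR adjusted p = 0.195).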

How the data were processed

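Expected counts for 42361 RefSeq transcripts, as the authors deposited them, were not normalized and came in steps of 0.5. Per the submitters' processing notes, CASAVA 1.8.2, HISAT2 2.1.0 and mm10 were used, in roles the notes do not state. The counter and the handling of strand and multiply aligned reads were not given in the sources used here, and related genes may share reads. The library kit was KAPA mRNA HyperPrep, per the labels' protocols. Symbols came from RefSeq (GRCm38.p6, 42203 rows) or GENCODE vM21 (65 rows), and 93 rows kept their identifier. The row of highest total was kept per gene and rounded up to whole counts. edgeR 4.0.16 in R 4.3.3 fitted 11256 genes (filterByExpr, TMM, robust quasi-likelihood F test, all 9 libraries, 1 term per group), adjusted by Benjamini-Hochberg within each comparison at 0.05 ("called"), after a test on simulated data. Alternatives used DESeq2 1.42.0, limma 3.58.1, other scaling, filters, rows and libraries. The design assumed whole counts. The labels do not pair libraries by replicate number. Correlations of same-numbered deviations were -0.149 to 0.18 over all groups, and 0.0783 to 0.18 between WT anti-CD40L and WT isotype. Replicate pairs differed by more than sampling noise. Members and lists were chosen with earlier results of these data known. Besides the 6 genes, up to 3 called genes per direction and list, the 3 most abundant of a list and the 3 nearest profiles could be named.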

Additional observations from a re-analysis of the deposited data

How the results depend on the processing

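Directions of the 6 genes held in all 19 alternatives for WT anti-CD40L against WT isotype and against libraries labelled KO, and no called result changed sign. Genes called in WT anti-CD40L over WT isotype numbered 1055, against 1593 by DESeq2, 1577 by limma-voom with quality weights, 1698 without the filter and 588 without both WT anti-CD40L replicate 3 and WT isotype replicate 1, a pair chosen after seeing the data. Members called were 3, but 5 without the filter and 5 without that pair. For KO over WT isotype 0 genes were called, against 42 by DESeq2, 32 by limma-voom with quality weights, 102 without the filter, 3 in a fit of only the 2 groups and 1 without that pair, with 2, 1, 2, 0 and 0 members among them. For WT anti-CD40L over KO isotype 769 were called, against 1179 by DESeq2, 1464 by limma-voom with quality weights, 1305 without the filter and 481 in a fit of only the 2 groups, with 6 members in each. Leaving out 1 library gave 486 to 1342, 0 to 2 and 346 to 1022 genes in the 3 comparisons, and 1 to 5, 0 to 0 and 4 to 6 members. The lowest member count, 1, came without WT isotype replicate 2 or 3. With the replicate number as a block, 954, 0 and 664 genes and 3, 0 and 6 members were called, with Egr2 added in the last (edgeR adjusted p = 0.0327). Numbers are not a pairing in the labels, and every library correlated best with its own number only between WT anti-CD40L and WT isotype (0.0783 to 0.18). The causes were not tested. The lowest count of the 6 genes was 361, for Nr4a2 in WT anti-CD40L replicate 3, and no fit at reduced depth was run.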
